A study of Mus musculus with 6 samples.

Results

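The 9 long noncoding RNAs Malat1, Neat1, Kcnq1ot1, Gas5, Snhg1, Snhg3, Snhg5, Snhg8 and Snhg12 were measured in mouse muscle satellite cells, the resident stem cells of skeletal muscle. They were chosen by name, as 3 abundant nuclear RNAs and 6 host genes of small nucleolar RNAs (snoRNAs), and are 9 of the 27179 gene IDs counted. The cells came from muscle of mice of the C57Bl/6N background with the WT genotype, fed a high-fat diet (3 libraries) or a chow diet (3 libraries). The series set satellite cells of obese mice against those of lean mice. Each replicate held no fewer than 50000 sorted cells. Total RNA with an integrity number of 8.5 to 9.4 was depleted of ribosomal RNA and read as single 75-bp reads, so that RNAs without a poly(A) tail were also counted. The labels do not state age, sex, length of the diet or sorting gate, nor whether each replicate was its own animal. A p-value here thus covers only the spread among the 6 libraries, part of which may be technical.

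Malat1, Neat1 and Kcnq1ot1 act in the nucleus. Malat1 collects in nuclear speckles, domains rich in splicing factors, Neat1 is the scaffold of paraspeckles, and Kcnq1ot1 is made from the paternal allele inside the Kcnq1 gene and silences imprinted neighbours on the same chromosome. The 6 host genes work in another way: snoRNAs, which guide chemical modification or processing of ribosomal RNA, are cut out of their introns, and the spliced exons are often removed in the cytoplasm by nonsense-mediated decay. Several host genes, Gas5 among them, start with a run of pyrimidines like that of ribosomal protein genes (a 5′ terminal oligopyrimidine tract), which ties translation of the RNA, and with it its decay, to growth signals.

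The start sites of the hosts are shown because several are known for such a run. Each line gives 25 bases before and 25 bases from an annotated RefSeq start (GRCm38.p6), on the strand of the gene. Capitals mark a C followed by at least 4 bases that are each C or T, beginning within 10 bases of the start. Only the sense strand was searched.
Gas5, chr1:161035141-161035190, plus strand: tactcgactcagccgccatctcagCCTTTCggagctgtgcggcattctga
Snhg8, chr3:123508312-123508361, minus strand: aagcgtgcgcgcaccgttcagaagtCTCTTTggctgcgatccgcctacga
Snhg12, chr4:132308653-132308702, plus strand: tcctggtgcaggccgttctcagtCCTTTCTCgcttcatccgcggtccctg
Snhg3, chr4:132353662-132353711, minus strand: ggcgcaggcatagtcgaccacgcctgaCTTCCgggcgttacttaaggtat
Snhg5, chr9:88522873-88522922, minus strand: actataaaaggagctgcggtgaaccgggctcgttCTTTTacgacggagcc
Snhg1, chr19:8723462-8723511, plus strand: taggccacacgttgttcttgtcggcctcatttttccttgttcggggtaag
Such a run was found for 5 of the 6 hosts (5 of their 7 windows, 71.4%), and for neither Malat1 nor Kcnq1ot1. By gene it was found for 8 of 23 protein-coding snoRNA hosts and 5 of 12 further noncoding hosts. By window it was found in 29.7% of all 32851 RefSeq start windows of mouse genes, in 33.3% of 24 windows of protein-coding snoRNA hosts and in 38.5% of 13 windows of further noncoding hosts. The first transcribed base was itself a C followed by such a run for Gas5 and Snhg8, which held for 2.51% of all windows. Gas5 has another annotated start without the run, and in the Snhg1 window no match lay within 10 bases of the start. Of the 9 RNAs, 8 were matched in the start table, all but Neat1. A match describes the letters in the window and is not evidence of use.

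The mature products of the 2 kinds of gene differ in their ends, and the next 3 sequences show this. The end of Malat1 has no poly(A) tail: the RNA is cleaved in front of a tRNA-like small RNA (mascRNA), and upstream U-rich stretches fold over the A-rich end. In the Malat1 line capitals mark the 58 bases of mascRNA, and the 90 bases before them carry the A-rich end. Snord47 is a box C/D snoRNA inside Gas5, with its C box (TGATGA) and D box (CTGA) in capitals. Snora61 is a box H/ACA snoRNA inside Snhg12, with the ACA box in capitals. These lines follow the GENCODE M21 annotation on GRCm38. RefSeq gives shorter genes, 65 bp for Snord47 and 62 bp for Snora61, against 77 and 130 bases in the lines here.
Malat1, chr19:5795924-5796071, minus strand: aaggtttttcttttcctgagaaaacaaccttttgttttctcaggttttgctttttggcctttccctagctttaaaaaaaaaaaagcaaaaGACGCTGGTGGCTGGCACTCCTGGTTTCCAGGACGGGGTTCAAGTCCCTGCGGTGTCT
Snord47, chr1:161038082-161038158, plus strand: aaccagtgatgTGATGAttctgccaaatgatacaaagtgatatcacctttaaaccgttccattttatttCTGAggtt
Snora61, chr4:132310240-132310369, plus strand: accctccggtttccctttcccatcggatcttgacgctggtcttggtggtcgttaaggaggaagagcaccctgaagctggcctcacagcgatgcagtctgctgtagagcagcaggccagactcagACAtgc

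Counts summed to between 14930394 and 18217818 per library, so that 3 counts, used here as the floor for a gene at 0, stood for 0.165 to 0.201 CPM (counts rescaled to equal library size). Floors cover counting error only. High-fat diet library 1 and chow library 3 stood apart on principal component 1 (29.4% of variance over 500 variable genes), at −43.1 and 60.8, while the other libraries lay between −12.3 and 6.64. The difference of each of the 9 RNAs is given without them too. The satellite cell markers were present in every library. Their 12 levels, here as plain CPM without scaling, summed to between 4686 and 6382 CPM in high-fat diet libraries, against 5611 to 6321 CPM in chow libraries. Markers of fibro-adipogenic progenitors summed to 774 to 1131 CPM in high-fat diet libraries, against 725 to 870 CPM in chow libraries, led by Col3a1. Mural markers, led by Notch3, lay at 652 to 928 CPM in high-fat diet libraries, against 745 to 921 CPM in chow libraries. Endothelial markers, led by Tek, lay at 247 to 406 CPM in high-fat diet libraries, against 268 to 367 CPM in chow libraries. All these summed ranges overlap between the diets, but single markers went both ways. After scaling, Pax7 averaged 234 CPM in high-fat diet libraries and 402 CPM in chow libraries (edgeR adjusted p = 0.180). Itga7 averaged 369 CPM in high-fat diet libraries and 245 CPM in chow libraries (edgeR adjusted p = 0.328). The diets did not overlap for Pax7 (lower), nor for Itga7, endothelial Kdr and mural Tagln (higher), against 15.3% of all genes in either direction. None of these markers passed. Immune markers stayed at or under 49.7 CPM, and 4 of the 10, Adgre1, C1qa, Cd3e and Cd52, were at 0 in all libraries. Adipocyte markers came almost wholly from Fabp4, and Plin1, Lep, Retn and Car3 were at 0 throughout. Myofibre markers stayed at or under 45.1 CPM, glial markers at or under 58.6 CPM and erythroid markers at or under 1.81 CPM.

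None of the 9 long noncoding RNAs differed between diets by the test across all genes. Of the 9, 0 passed an adjusted p under 0.05 (edgeR quasi-likelihood F test, Benjamini-Hochberg over all 13202 genes tested), against 0.258% of all genes tested (0.0909% higher and 0.167% lower). All 9 passed the filter on low counts. The 3 nuclear RNAs had estimates above 0 and 5 of the 6 hosts had estimates below 0. Only Kcnq1ot1 of the 9 had an unadjusted p under 0.05, against 7.65% of all genes, and it was also the one whose diets did not overlap. Without high-fat diet library 1 and chow library 3, 5 of the 9 (Malat1, Kcnq1ot1, Gas5, Snhg3 and Snhg12) had an unadjusted p under 0.05, against 7.04% of all genes, and their edgeR adjusted p-values lay between 0.644 and 0.683. The intervals bound the differences that these data leave possible, from narrow for Malat1 to very wide for Snhg3. Here and below, a level is a CPM value after TMM scaling (trimmed mean of M values), and a difference is log2 high-fat diet minus chow. In bulk RNA, fewer cells that make an RNA and less of it per cell cannot be told apart.

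**Figure D1:**
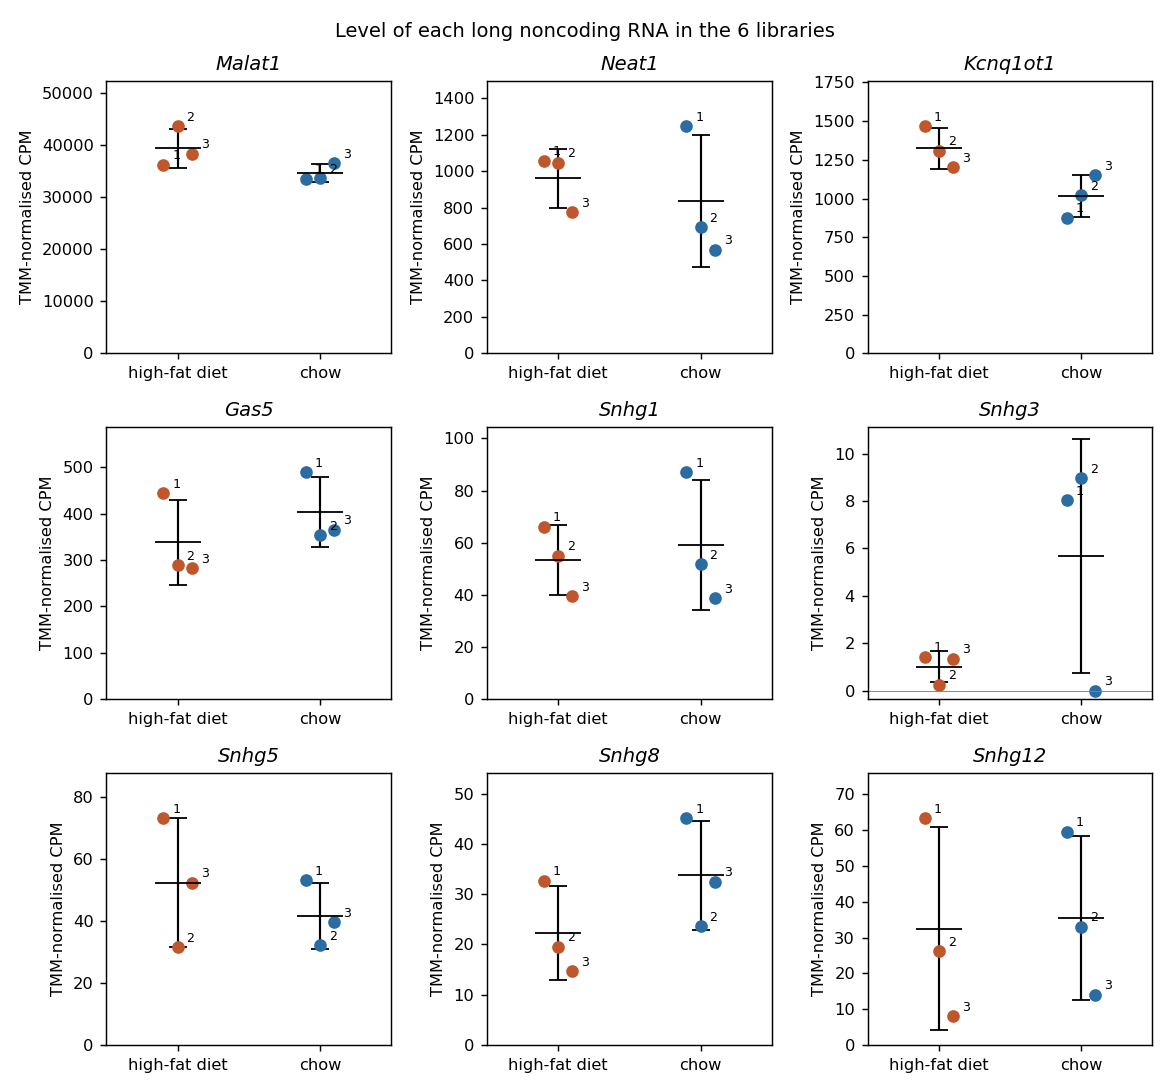
Level of each of the 9 long noncoding RNAs in TMM-normalised CPM (vertical axes, from 0) in the 3 high-fat diet libraries (left) and the 3 chow libraries (right). Numbers are library numbers, horizontal lines are means and bars are ± 1 SD. The diets overlap in every panel but that of Kcnq1ot1, and library 1 is the highest point of both diets for Neat1, Gas5, Snhg1, Snhg5, Snhg8 and Snhg12.

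Malat1 (chr19:5795690-5802672, minus strand, GRCm38.p6, spanning 6983 bases) was the second most abundant gene ID of the series. It stood at 36191, 43562 and 38282 CPM in high-fat diet libraries 1, 2 and 3, against 33495, 33668 and 36529 CPM in chow libraries 1, 2 and 3. High-fat diet library 2 was the highest and the diets overlapped by a single pair, since chow library 3 lay just above high-fat diet library 1. Means were 39345 ± 3799 CPM in high-fat diet libraries and 34564 ± 1704 CPM in chow libraries (SD, n = 3 each). The difference was 0.19 (SE 0.10, 95% interval −0.03 to 0.40, edgeR adjusted p = 0.741). As a plain share of all counts, without scaling, Malat1 took 3.73%, 4.15% and 3.90% in high-fat diet libraries, against 3.34%, 3.39% and 3.60% in chow libraries. On that measure the diets did not overlap, but how many of all genes do so without scaling was not counted. Malat1 was also the 1 RNA of the 9 that passed under another test, limma-voom, where its difference was 0.18 with an adjusted p of 0.0306 and 0.750% of all genes passed. DESeq2, by which 2.03% of genes passed, gave Malat1 an adjusted p of 0.596. The edgeR difference was 0.30 without high-fat diet library 1 and chow library 3 (adjusted p = 0.644) and 0.10 without high-fat diet library 2.

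Neat1 (chr19:5824708-5845480, minus strand), the neighbour of Malat1 on the chromosome, varied more among the chow libraries than between the diets. It stood at 1058, 1047 and 775 CPM in high-fat diet libraries, against 1246, 693 and 568 CPM in chow libraries. Chow library 1 was the highest of all 6 and chow library 3 the lowest, so that the high-fat diet libraries lay within the range of chow. The difference was 0.20 (SE 0.24, 95% interval −0.32 to 0.72, edgeR adjusted p = 0.976). Without high-fat diet library 1 and chow library 3 it was −0.08, and without chow library 1 it was 0.61 (unadjusted p = 0.00807, edgeR adjusted p = 0.474).

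Kcnq1ot1 (chr7:143213111-143296547, minus strand) was the 1 RNA of the 9 whose scaled levels did not overlap between the diets. It stood at 1466, 1309 and 1203 CPM in high-fat diet libraries, against 877, 1020 and 1149 CPM in chow libraries. Every high-fat diet library was above every chow library, a pattern seen for 7.42% of all genes tested in that direction. Means were 1326 ± 132 CPM in high-fat diet libraries and 1015 ± 136 CPM in chow libraries (SD, n = 3 each), a fitted ratio of 1.31 (95% interval 1.05 to 1.63). The difference was 0.38 (SE 0.15, edgeR unadjusted p = 0.0218, adjusted p = 0.502). It was 0.42 without high-fat diet library 1 and chow library 3 (edgeR adjusted p = 0.658). Kcnq1ot1 is by far the longest of the 9 RNAs. For each library, log2 CPM minus the gene's mean over the 6 libraries was set against gene length, for genes that averaged 10 CPM or more. Length here is that of all annotated exons merged, retained introns included. Chow library 1, the lowest for Kcnq1ot1, had a slope of −0.0783 per doubling of length, while in the other 5 the slope lay between −0.00032 and 0.0306. Such slopes are relative to the other libraries. With a smooth length trend removed from each library the difference was 0.14 (unadjusted p = 0.529). Kcnq1, the potassium channel gene that Kcnq1ot1 overlaps on the opposite strand, was at 0 counts in all 6 libraries. Counts on the 2 strands cannot be told apart here, since the strand setting was not given in the sources used.

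**Figure D2:**
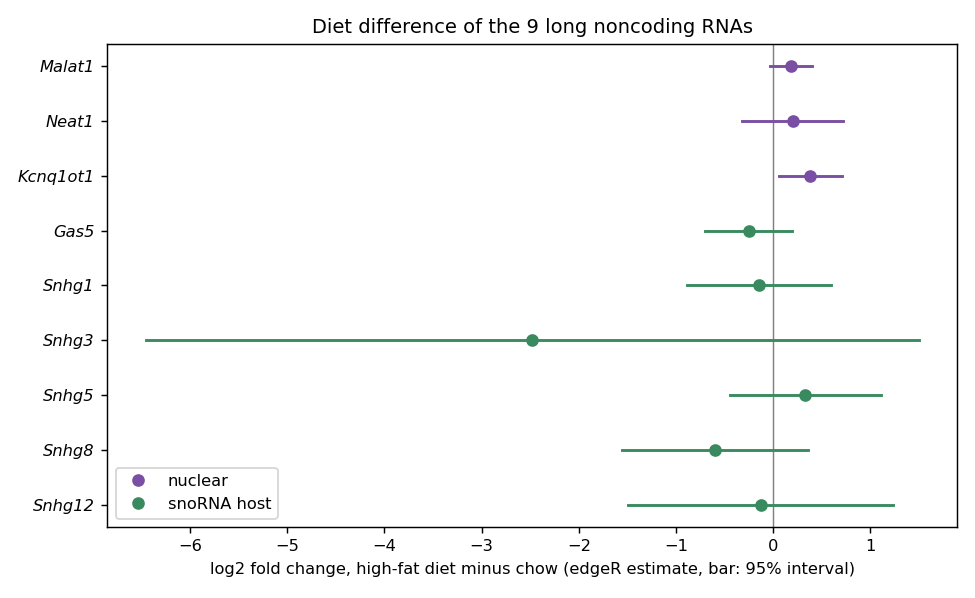
Diet difference of each RNA (horizontal axis, log2 high-fat diet minus chow; point: edgeR estimate; bar: 95% interval), with the nuclear RNAs and the snoRNA hosts in different colours. The interval of Kcnq1ot1, from 0.07 to 0.70, lies above 0 and those of the other 8 include 0, with Snhg3 spanning −6.45 to 1.50.

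The 6 host genes fell into a well measured one, Gas5, 4 at a moderate level and 1 at a low and uneven level, Snhg3. Gas5 (chr1:161034601-161038539, plus strand), first found as a growth-arrest transcript, carries 8 of the 25 snoRNA genes that RefSeq places inside the 6 hosts. It stood at 444, 289 and 282 CPM in high-fat diet libraries, against 489, 353 and 365 CPM in chow libraries. Library 1 was the highest in both diets, and high-fat diet library 1 lay above chow libraries 2 and 3, so the diets overlapped. The difference was −0.25 (SE 0.21, 95% interval −0.70 to 0.20, edgeR adjusted p = 0.928). With high-fat diet library 1 and chow library 3 left out it was −0.55 (unadjusted p = 0.0265, edgeR adjusted p = 0.652). Without chow library 1 alone it was −0.08 (unadjusted p = 0.718). The start of Gas5 overlaps Zbtb37, a zinc finger gene on the opposite strand. Zbtb37 averaged 13.5 ± 2.38 CPM in high-fat diet libraries and 3.33 ± 2.11 CPM in chow libraries (SD, n = 3 each, difference 2.03, edgeR adjusted p = 0.622). Zbtb37 is far below Gas5 in reads.

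Snhg1 (chr19:8723487-8726326, plus strand) also carries 8 snoRNA genes and starts 117 bp from Slc3a2, the heavy chain of amino acid transporters, on the other strand. Snhg1 stood at 66.1, 54.9 and 39.4 CPM in high-fat diet libraries, against 87.0, 51.8 and 38.6 CPM in chow libraries. The 2 diets gave the same order of library numbers and covered nearly the same range. The difference was −0.15 (SE 0.34, 95% interval −0.88 to 0.59, edgeR adjusted p = 0.999). It was −0.55 without high-fat diet library 1 and chow library 3 (edgeR adjusted p = 0.879) and 0.25 without chow library 1. Slc3a2 averaged 153 ± 29.2 CPM in high-fat diet libraries and 177 ± 7.13 CPM in chow libraries (SD, n = 3 each), and did not pass (edgeR adjusted p = 0.958).

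Snhg5 (chr9:88521052-88522897, minus strand) was the only host with an estimate above 0. It stood at 73.1, 31.5 and 52.2 CPM in high-fat diet libraries, against 53.0, 32.1 and 39.5 CPM in chow libraries. High-fat diet libraries held both the highest and the lowest value, so that chow lay inside their range. The difference was 0.33 (SE 0.36, 95% interval −0.45 to 1.11, edgeR adjusted p = 0.961), and −0.01 without high-fat diet library 1 and chow library 3. Leaving out 1 library at a time gave 0.02 to 0.59, lowest without high-fat diet library 1 and highest without high-fat diet library 2.

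Snhg8 (chr3:123507552-123508336, minus strand), which carries 1 snoRNA gene, stood at 32.6, 19.5 and 14.6 CPM in high-fat diet libraries, against 45.1, 23.7 and 32.4 CPM in chow libraries. High-fat diet library 1 lay among the chow libraries and the other two below them. The difference was −0.60 (SE 0.45, 95% interval −1.56 to 0.36, edgeR adjusted p = 0.894). It was −1.0 without high-fat diet library 1 and chow library 3 (edgeR adjusted p = 0.745), −0.97 without high-fat diet library 1 alone and −0.33 without chow library 1.

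Snhg12 (chr4:132308678-132311024, plus strand), which carries 4 snoRNA genes, varied most among libraries of the same diet apart from Snhg3. It stood at 63.4, 26.2 and 7.98 CPM in high-fat diet libraries, against 59.6, 33.1 and 14.01 CPM in chow libraries. The highest library was 7.94 times the lowest with the high-fat diet and 4.25 times with chow, far beyond the gap between the means. Means were 32.5 ± 28.3 CPM in high-fat diet libraries and 35.6 ± 22.9 CPM in chow libraries (SD, n = 3 each). The difference was −0.13 (SE 0.64, 95% interval −1.50 to 1.24, edgeR adjusted p = 1.00). Leaving out single libraries gave −1.04 (high-fat diet library 1) to 0.47 (chow library 1), so its direction was not stable. With high-fat diet library 1 and chow library 3 left out it was −1.43 (unadjusted p = 0.0352, edgeR adjusted p = 0.672).

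Snhg3 (chr4:132351933-132353686, minus strand) lies near Snhg12 on chromosome 4. Its counts were 22, 4 and 25 in high-fat diet libraries, against 128, 154 and 0 in chow libraries. Chow libraries 1 and 2 were above all high-fat diet libraries, while chow library 3, one of the 2 libraries that stood apart, was at 0, which allows up to 0.170 CPM. Levels were 1.43, 0.256 and 1.35 CPM in high-fat diet libraries, against 8.04, 8.98 and 0 CPM in chow libraries. The difference of −2.48 had an SE of 1.85 (95% interval −6.45 to 1.50, edgeR adjusted p = 0.894). Without high-fat diet library 1 and chow library 3 it was −3.38 (unadjusted p = 0.0376, edgeR adjusted p = 0.683).

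The snoRNA genes inside the hosts were lower with the high-fat diet in their estimates, but none passed by edgeR with the filter on low counts. The 75-bp reads are longer than some of these genes, such as Snord99 at 56 bp. Counts on them do not tell snoRNAs cut out of the introns from unspliced host RNA. Of the 25 snoRNA genes inside the hosts, 9 were in the count tables and 7 passed the filter on low counts. Snora73b in Snhg3 and Snora24 in Snhg8 were at 0 in all 6 libraries. All 7 tested had estimates below 0, with a median of −0.81, and 0 passed, against 0.258% of all genes. The diets did not overlap, with high-fat diet lower, for 2 of the 7, Snora16a and Snora61, against 7.87% of all genes. The values of Snora73a in Snhg3 were 52.7, 113 and 90.5 CPM in high-fat diet libraries, against 280, 131 and 99.1 CPM in chow libraries. Chow library 1 stood far above the rest, and high-fat diet library 2 lay above chow library 3. Its difference was −0.99 (SE 0.36, edgeR adjusted p = 0.442). With no filter on low counts Snora73a passed (−0.98, edgeR adjusted p = 0.00869), and without chow library 1 its difference was −0.42 (edgeR adjusted p = 0.910). How reads shared by the near-identical copies Snora73a and Snora73b were assigned is not given in the sources used here. Snora61, whose longer GENCODE sequence is shown above, stood at 15.7, 22.8 and 8.90 CPM in high-fat diet libraries, against 62.5, 23.8 and 26.5 CPM in chow libraries. The gap between the diets rested on a narrow margin, and chow library 1 was again far above the others. Its difference was −1.25 (SE 0.51, edgeR adjusted p = 0.556), and −0.66 without chow library 1 (edgeR adjusted p = 0.950). Snord47, also shown above, stood at 20.5, 28.8 and 38.1 CPM in high-fat diet libraries, against 46.0, 38.1 and 51.4 CPM in chow libraries, and its difference was −0.63 (SE 0.36, edgeR adjusted p = 0.768).

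A lower estimate was not particular to snoRNAs of these hosts. Among all 95 snoRNA genes tested, a class looked at after the values were seen, 78 (82.1%) had estimates below 0, with a median of −0.82, and 0 passed by edgeR, although 14 had an unadjusted p under 0.05, against 7.65% of all genes. Of these 95, 44 (46.3%) were highest in chow library 1 and 52 (54.7%) were lowest in high-fat diet library 1, against 17.0% and 25.4% of protein-coding genes. The small nuclear RNA class was alike, with 13 of 14 estimates below 0 and a median of −0.58. Long noncoding RNAs as a class were evenly divided, with 203 estimates above 0 and 214 below 0 among 417 tested, a median of −0.02 and 0 that passed. A pair of short noncoding RNAs from a list of other nuclear or abundant RNAs had lower means. They were Rmrp, the RNA of the RNase MRP particle, and Rn7sk, the inhibitory RNA of the elongation kinase P-TEFb. Rn7sk belongs to the small nuclear RNA class and held most of its counts, so it is not a case apart from that class. Rmrp averaged 1576 ± 425 CPM in high-fat diet libraries and 3314 ± 1377 CPM in chow libraries (SD, n = 3 each, difference −1.07, edgeR adjusted p = 0.148). Its diets did not overlap, as for 7.87% of all genes in that direction. Rn7sk averaged 20683 ± 4395 CPM in high-fat diet libraries and 29840 ± 7547 CPM in chow libraries (difference −0.53, edgeR adjusted p = 0.399), and its diets overlapped. Chow library 1 was also the library with the most negative slope on merged exon length, relative to the other libraries. With the length trend removed the difference was −0.72 for Snora73a (edgeR adjusted p = 0.802) and −0.82 for Snora61 (edgeR adjusted p = 0.955).

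**Figure D3:**
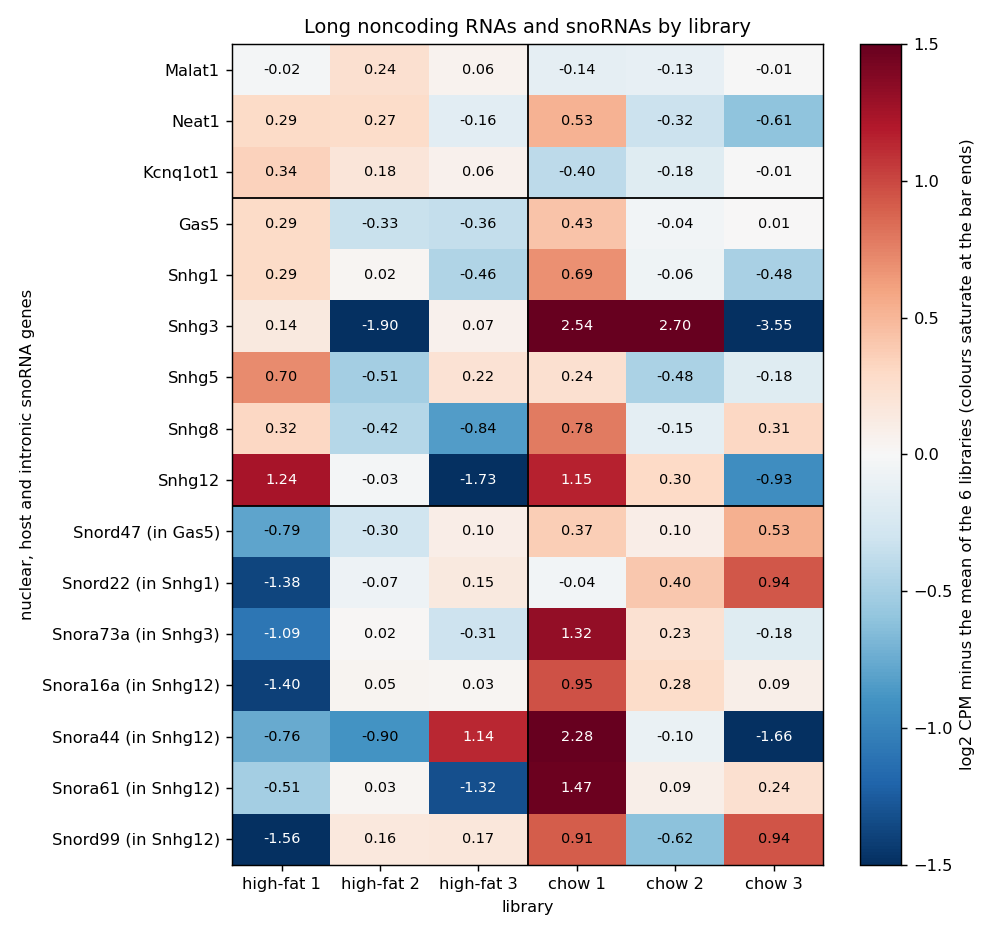
Level of each long noncoding RNA and of the 7 tested snoRNAs inside the hosts, as log2 CPM minus the gene's mean over the 6 libraries (colour and printed value; columns: high-fat diet libraries left, chow libraries right). Hosts such as Snhg12 are high in library 1 of both diets (1.24 and 1.15), while 5 of the 7 snoRNAs are lowest in high-fat diet library 1 and 4 of 7 highest in chow library 1.

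Neat1 and 5 of the 6 hosts, all but Snhg3, shared a pattern that ran across the diets rather than with them, noticed after the values were seen. Library 1 was the highest of its diet in both diets for 6 of the 9 RNAs: Neat1, Gas5, Snhg1, Snhg5, Snhg8 and Snhg12. Among related genes described below it held for 10 of 33 protein-coding snoRNA hosts, 6 of 18 snoRNA particle genes and 6 of 20 nuclear speckle genes. It held for 3 of 13 further noncoding hosts, 4 of 18 decay factors, 2 of 18 paraspeckle genes and 2 of 17 other noncoding RNAs. Over all genes that averaged 10 CPM or more the share was 15.2%. No RNA of the 9 was highest in both libraries 2 or both libraries 3, which held for 8.24% and 10.8% of such genes. The labels do not tie a library number of one diet to that of the other. Over 7425 genes the deviations of the 2 libraries numbered 1 correlated at 0.053, which was small but the highest of all pairs across the diets. Unlike-numbered pairs lay between −0.045 and 0.033. Summed markers of fibro-adipogenic progenitors were also highest in library 1, at 1131, 815 and 774 CPM in high-fat diet libraries, against 870, 758 and 725 CPM in chow libraries. Satellite cell marker sums were too, at 6382, 4686 and 5455 CPM in high-fat diet libraries, against 6321, 5611 and 5614 CPM in chow libraries. Of single genes, 3 of 9 progenitor markers tested and 3 of 12 satellite cell markers had library 1 highest in both diets. Mural sums did not follow, at 652, 707 and 928 CPM in high-fat diet libraries, against 811, 921 and 745 CPM in chow libraries. Endothelial sums did not either, at 247, 303 and 406 CPM in high-fat diet libraries, against 288, 367 and 268 CPM in chow libraries. The part of these marker levels in the pattern was not tested. Snhg12 and the snoRNA genes inside it went together in one library 1 and apart in the other. In high-fat diet library 1 Snhg12 was 1.24 above its mean on the log2 scale. Snora16a, Snora44, Snora61 and Snord99 inside it stood at −1.40, −0.76, −0.51 and −1.56 relative to theirs. In chow library 1 Snhg12 stood at 1.15 and the same snoRNA genes at 0.95, 2.28, 1.47 and 0.91.

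Levels per length of transcript put the 9 RNAs in an order that counts alone do not give. Counts were divided by the length of the longest annotated transcript without a retained intron. Malat1 stood first, at 5634 ± 544 CPM per kb in high-fat diet libraries and 4950 ± 244 CPM per kb in chow libraries (SD, n = 3 each). Gas5 was next, at 509 ± 138 CPM per kb in high-fat diet libraries and 605 ± 113 CPM per kb in chow libraries. These 2 steps, Malat1 above Gas5 and Gas5 above the rest, were the only ones without overlap between neighbours over the 6 libraries. Snhg1, Snhg8, Snhg5 and Neat1 followed, with means between 42.2 and 75.4 CPM per kb in high-fat diet libraries and between 40.2 and 83.4 CPM per kb in chow libraries. Their order among themselves was within the spread of the libraries. Snhg12 (21.1 ± 18.4 CPM per kb in high-fat diet libraries, 23.1 ± 14.9 CPM per kb in chow libraries) and Kcnq1ot1 (14.2 ± 1.42 CPM per kb in high-fat diet libraries, 10.9 ± 1.46 CPM per kb in chow libraries) came next. Snhg3 was last, at 1.74 ± 1.13 CPM per kb in high-fat diet libraries and 9.76 ± 8.49 CPM per kb in chow libraries. With all annotated exons merged, retained introns included, Neat1 took rank 3 and Snhg1 rank 6, so the middle of the order rests on the length used. Gas5 kept rank 2 on that length, but at 118, 76.8 and 75.0 CPM per kb in high-fat diet libraries, against 130, 93.8 and 97.1 CPM per kb in chow libraries.

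**Figure D4:**
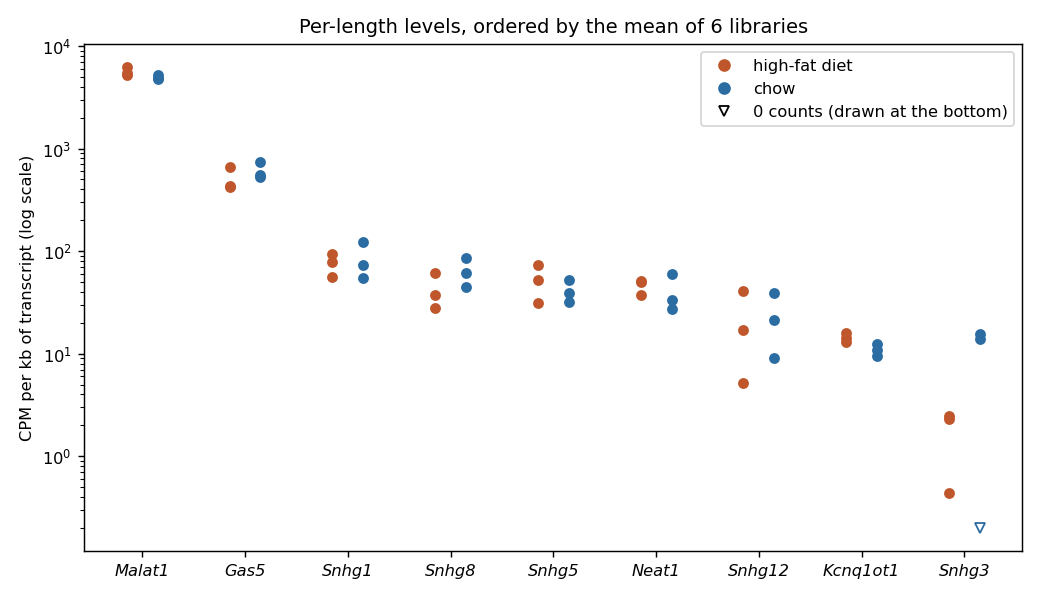
Level per kb of transcript (vertical axis, log scale) of the 9 RNAs in order of their mean, each point a library, high-fat diet left and chow right of each name. Malat1 lies between 4797 and 6238 CPM per kb and Gas5 between 424 and 735, while neighbours from Snhg1 onward overlap; the open triangle marks Snhg3 at 0 in chow library 3.

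The genes whose pattern over the 6 libraries came closest to each RNA were found by the root mean square difference of centred log2 CPM, over 6991 named genes of at least 10 CPM. Closest to Kcnq1ot1 were Grb10, an imprinted growth-factor adaptor, at 0.027, Nppc, the precursor of C-type natriuretic peptide, at 0.033 and Srp54a, a subunit of the signal recognition particle, at 0.054. Grb10 stood at 660, 605 and 532 CPM in high-fat diet libraries, against 410, 461 and 531 CPM in chow libraries, so it showed nearly the same order as Kcnq1ot1. Closest to Malat1 were Utrn (utrophin, 0.057), the mitochondrial COX1 (0.064) and the transporter gene Abca5 (0.066). Closest to Gas5 were Dnajc25 (0.048), Npm1, the nucleolar protein nucleophosmin (0.052), and the initiation factor gene Eif3j2 (0.085). Npm1 stood at 339, 207 and 199 CPM in high-fat diet libraries, against 374, 274 and 276 CPM in chow libraries, with library 1 highest in both diets as for Gas5. Closest to Snhg1 were Pip4k2c (0.076) and the ribosomal protein genes Rpl38 (0.084) and Rpl27a (0.117). Closest to Neat1 were the long noncoding RNA Norad (0.115), Dlst (0.116) and Ubfd1 (0.123).

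These distances grow with the spread of the RNA itself, whose SD over the 6 libraries was 0.13 for Malat1 and 2.23 for Snhg3 on the log2 scale, so they are not compared between RNAs. Ret (0.093), Dctn4 and Ptprf were closest to Snhg8, Camk2n1 (0.127), Ak3 and Cd3eap to Snhg5, and Zbed3 (0.299), Dennd10 and Sft2d2 to Snhg12. Closest to Snhg3 were Osr2 (1.03), Nlrc5 and Grwd1. Between the 9 RNAs themselves, the smallest distances were 0.187 (Malat1 and Kcnq1ot1), 0.208 (Neat1 and Snhg1), 0.271 (Gas5 and Snhg1) and 0.276 (Gas5 and Snhg8). Malat1 and Kcnq1ot1 also had the smallest SDs of the 9 (0.13 and 0.24), so these pairs are not ranked by likeness. Each distance comes from 6 libraries that all genes share.

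Related genes were described by their counts and medians, beside a median difference of −0.01 over all genes tested. Of 15 further snoRNA-host noncoding RNAs 13 were tested, 10 had estimates below 0, the median was −0.52 and 0 passed. Zfas1, a host of box C/D snoRNAs, averaged 19.5 ± 7.54 CPM in high-fat diet libraries and 44.7 ± 17.7 CPM in chow libraries (SD, n = 3 each, difference −1.19, edgeR adjusted p = 0.475). Its diets did not overlap, which held in the lower direction for 3 of the 13, against 7.87% of all genes. Snhg17 averaged 28.2 ± 5.50 CPM in high-fat diet libraries and 46.0 ± 12.3 CPM in chow libraries (difference −0.70, edgeR adjusted p = 0.701). Of 33 protein-coding snoRNA hosts, mostly ribosomal protein and translation factor genes, 28 had estimates below 0, with a median of −0.29. None of the 33 passed by edgeR, 9 had an unadjusted p under 0.05, against 7.65% of all genes, and 12 did not overlap in the lower direction, against 7.87% of all genes. Rpl5, a ribosomal protein gene that hosts snoRNAs, averaged 134 ± 8.22 CPM in high-fat diet libraries and 214 ± 18.1 CPM in chow libraries (difference −0.68, edgeR adjusted p = 0.224). Eef2, the elongation factor that moves the ribosome along, averaged 1568 ± 150 CPM in high-fat diet libraries and 2160 ± 245 CPM in chow libraries (difference −0.46, edgeR adjusted p = 0.305). Of 19 other nuclear or abundant noncoding RNAs 17 were tested, 10 estimates were above 0 and 7 below, the median was 0.26 and 0 passed.

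Protein partners did not pass either. Of 18 paraspeckle protein genes 13 had estimates above 0, with a median of 0.21 and 0 that passed. Fam98a averaged 58.3 ± 24.4 CPM in high-fat diet libraries and 31.8 ± 5.31 CPM in chow libraries (difference 0.87, edgeR adjusted p = 0.569). Hnrnpk, an RNA-binding protein gene, averaged 119 ± 15.4 CPM in high-fat diet libraries and 154 ± 41.4 CPM in chow libraries (difference −0.37, edgeR adjusted p = 0.830). The diets overlapped for both genes, and their estimates lay on opposite sides of 0. Of 20 nuclear speckle genes 12 had estimates below 0, with a median of −0.09 and 0 that passed. The splicing factor gene Srsf3 averaged 296.7 ± 20.9 CPM in high-fat diet libraries and 406 ± 42.8 CPM in chow libraries (difference −0.45, edgeR adjusted p = 0.439). Sf3b1, which codes for a protein of the U2 particle of the spliceosome, averaged 783 ± 94.4 CPM in high-fat diet libraries and 978 ± 86.2 CPM in chow libraries (difference −0.32, edgeR adjusted p = 0.652). Each of these 2 genes was lower in every high-fat diet library than in any chow library, although neither passed. That pattern held for 3 of the 20 speckle genes, against 7.87% of all genes.

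The machinery that makes snoRNA particles and the one that degrades spliced host RNAs each had estimates on both sides of 0. The 18 genes of the snoRNA particle core and its assembly had 7 estimates above and 11 below 0 (median −0.11, 0 passed). Nop58, a core protein of box C/D particles, averaged 336 ± 9.48 CPM in high-fat diet libraries and 409 ± 94.1 CPM in chow libraries (edgeR adjusted p = 0.837). Rrp9 averaged 28.4 ± 15.7 CPM in high-fat diet libraries and 16.1 ± 8.80 CPM in chow libraries (edgeR adjusted p = 0.876). The diets overlapped for both. Of the nonsense-mediated decay factors 18 of 19 were tested, with 8 estimates above 0, 10 below, a median of −0.09 and 0 that passed. Rbm8a, of the exon junction complex, averaged 24.5 ± 1.56 CPM in high-fat diet libraries and 41.2 ± 1.90 CPM in chow libraries (difference −0.75, edgeR adjusted p = 0.652). Smg1, the kinase gene of this pathway, averaged 676 ± 39.6 CPM in high-fat diet libraries and 572 ± 11.5 CPM in chow libraries (difference 0.24, edgeR adjusted p = 0.796). Neither gene overlapped between the diets, Rbm8a being lower and Smg1 higher in the high-fat diet libraries. Of the 18 tested, 1 was lower and 1 higher without overlap, against 15.3% of all genes in either direction.

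In the imprinted domain around Kcnq1ot1, 8 of 14 genes were tested, 5 had estimates above 0, and 0 passed. Kcnq1 and Slc22a18 were at 0 in all libraries. Cars, a cysteinyl-tRNA synthetase gene, averaged 84.3 ± 39.4 CPM in high-fat diet libraries and 44.2 ± 9.10 CPM in chow libraries (difference 0.93, edgeR adjusted p = 0.476), and its diets overlapped. Cd81, a tetraspanin gene, averaged 225 ± 17.9 CPM in high-fat diet libraries and 183 ± 40.4 CPM in chow libraries (difference 0.30, edgeR adjusted p = 0.856). Cdkn1c, the cell-cycle inhibitor gene that Kcnq1ot1 is best known to silence, named here outside the rule, stood at 22.5, 70.6 and 33.6 CPM in high-fat diet libraries, against 38.9, 43.3 and 46.2 CPM in chow libraries. High-fat diet libraries lay both above and below chow, and the difference was −0.02 (SE 0.40).

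For scale, immediate early genes were a list that did respond in these libraries, and it was chosen with that known. Of its 26 genes 8 fell with the high-fat diet and 0 rose (edgeR adjusted p under 0.05), with a median of −1.03. The receptor gene Nr4a1 averaged 203 ± 52.7 CPM in high-fat diet libraries and 735 ± 127 CPM in chow libraries (SD, n = 3 each, difference −1.85, edgeR adjusted p = 0.00297), and Egr1 and Btg2 also fell, by 1.33 and 1.63 on the log2 scale. Without high-fat diet library 1 and chow library 3 1 gene passed (0.00722% of those tested), and none of Nr4a1, Egr1 and Btg2 did (differences −1.65, −1.39 and −1.47).

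**Figure D5:**
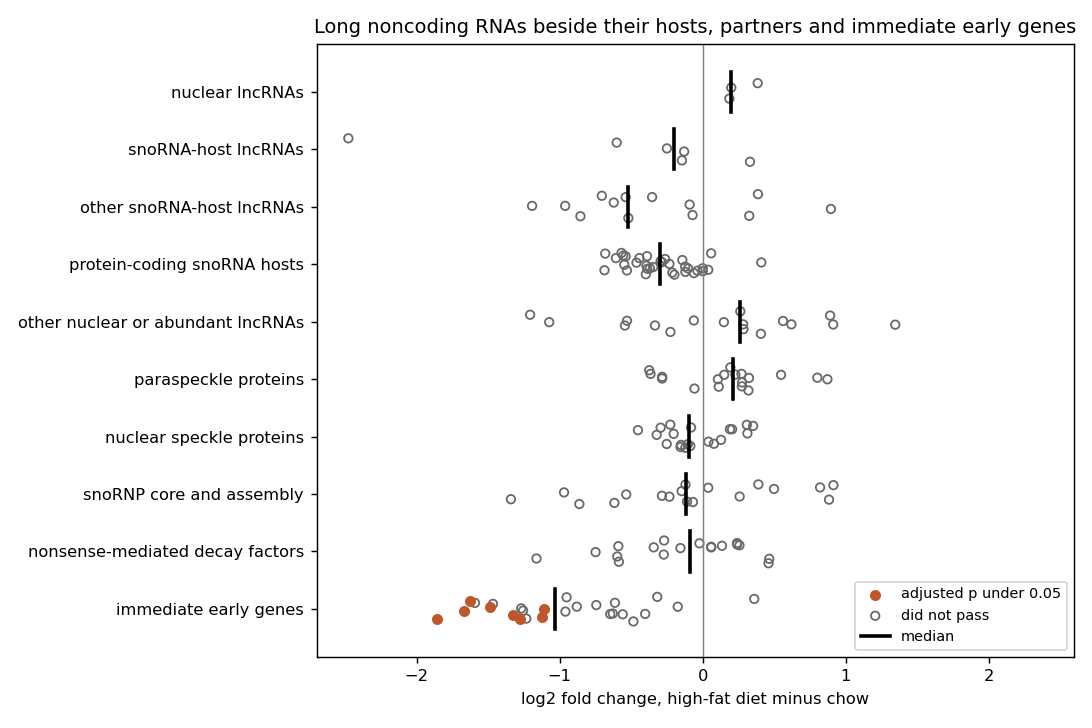
Diet difference (horizontal axis, log2 high-fat diet minus chow) of every tested gene of the lists, each point a gene, the vertical bar the median of the list. Filled points passed an adjusted p under 0.05 and all 8 of them are immediate early genes, while medians are 0.20 for the nuclear RNAs and −0.20 for the snoRNA hosts.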

How the data were processed

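The deposited values were counts, 1 table per library, as whole numbers of reads for each Entrez ID, not normalized. Per the submitters' processing notes, Bowtie2 and featureCounts and the builds GRCm38 and mm10 were used. Not given in the sources used here are their versions, the strand setting, how multiply mapped reads were treated, and the annotation release. Rows of overlapping genes and near-identical copies are therefore uncertain. Symbols and coordinates came from RefSeq GRCm38.p6, and transcript lengths and snoRNA sequences from GENCODE M21.

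The analysis used edgeR 4.0.16 in R 4.3.3: filterByExpr (minimum count 10), TMM scaling, and the two-sided quasi-likelihood F test with diet as the only factor over 13202 genes, with Benjamini-Hochberg adjustment. Standard errors are the absolute log2 difference over the square root of F. Intervals use the model's t quantile at 95%. Log2 CPM used a prior count of 2. The alternatives were other scalings and filters, DESeq2 1.42.0, limma 3.58.1 (voom), robust dispersions, a replicate block, removal of mitochondrial genes and the most abundant gene ID from library sizes, a length trend (loess, span 0.3), an adjusted p under 0.1, and left-out libraries.

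All 9 RNAs were named. Of each other list but the markers, the members with the smallest p were named (up to 3 that passed, or 2 where none did). Overlapping or adjacent genes within 5 kb and the 3 genes most alike were named too. The marker lists did not follow this rule. Only some markers that led a sum, had no counts or did not overlap between the diets were named there. The RNAs and the lists were chosen with earlier results of these data known. Every pair of libraries differed by more than counting noise, so none was treated as a repeat deposit of another. One neighbouring gene is not reported here.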

Additional observations from a re-analysis of the deposited data

How the results depend on the processing

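None of the 9 long noncoding RNAs passed in any setting run except Malat1, which gave a count of 1 under limma-voom (0.18, adjusted p = 0.0306) and under limma-voom with sample quality weights (0.24, adjusted p = 0.00734). Malat1, Kcnq1ot1, Gas5, Snhg3 and Snhg8 kept their direction in all 20 alternatives, with Malat1 between 0.10 and 0.30 and Kcnq1ot1 between 0.14 and 0.49. The median of the 6 hosts ran from −0.77 to 0.082. Kcnq1ot1 had an unadjusted p under 0.05 in 16 of the 20. Directions turned for Snhg12 with the length trend removed (0.076) and when single libraries were left out (−1.04 to 0.47), for Snhg1 when single libraries were left out (−0.38 to 0.25), and for Neat1 likewise (−0.013 to 0.61). Without high-fat diet library 1 and chow library 3, Neat1 was at −0.078 and Snhg5 at −0.015. The snoRNA Snora44 ranged over −1.88 to 0.85 when single libraries were left out, the last without chow library 1. The number of changed genes among all tested, 34 in the main analysis, was 163 with no filter, 17 with the length trend removed, 99 with limma-voom, 112 with quality weights, 279 with DESeq2, 9 to 44 when single libraries were left out, and 1 without high-fat diet library 1 and chow library 3. The cause of these moves was not tested. Deviations of same-numbered libraries of the 2 diets correlated at 0.053, 0.0091 and −0.00021 over 7425 genes, against −0.045 to 0.033 for unlike numbers. The numbers were not read as pairs. The replicate block gave 45 changed genes and 0 of the 9 RNAs, with Kcnq1ot1 at 0.39 (adjusted p = 0.524) and Malat1 at 0.18 (adjusted p = 0.745). At 3 libraries a diet, differences of the low hosts were bounded only loosely, from −6.45 to 1.50 for Snhg3.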
